A study of Mus musculus with 16 samples.

Results

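The 10 mouse odorant receptor genes considered here are ones whose ligands or axon maps are well studied, and they were chosen by gene symbol: Olfr2, Olfr15, Olfr16, Olfr17, Olfr73, Olfr78, Olfr151, Olfr160, Olfr1019 and Olfr1440. Of these, 8 were each represented by 1 probeset on the arrays, among 1080 odorant receptor probesets and 22206 gene probesets in all. Olfr78, the lactate receptor, and Olfr151, known as M71, were not analysed here. The data are 16 Clariom S arrays. They form 4 groups of 4: odorant-exposed GFP+, odorant-exposed GFP-, vehicle-exposed GFP+ and vehicle-exposed GFP- cells, all sorted from olfactory mucosa. All mice, 24 of both sexes aged 7 to 12 weeks, were of the S100a5-tauGFP line, whose green fluorescent protein (GFP) serves as a reporter for S100a5. Each mouse was kept singly for 40 h in a clean air chamber, and after 26 h the odorant or the vehicle, filtered air, was delivered for 10 s at intervals of 20 min. Since bourgeonal appears in the sample labels but indole in the title, the compound is called the odorant throughout. Mucosa of 3 mice was pooled for each sort, giving 8 pools, each with 1 GFP+ and 1 GFP- array.

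Each mature olfactory sensory neuron expresses a single odorant receptor gene, and neurons that share a receptor send their axons to the same few glomeruli of the olfactory bulb. Odorant binding activates the G protein Golf and adenylyl cyclase, and the cAMP made opens a cation channel. S100a5, a calcium-binding protein of these neurons, is expressed in an activity-dependent way, so a reporter of it marks neurons that have been active. Each receptor stands for its own set of neurons, and its levels in the GFP+ and GFP- cells show in which fraction its signal was higher. The numbers of cells sorted into the fractions were not used here, so the larger part of its RNA is not located. In such bulk samples, a difference in the number of cells expressing a receptor and a difference in RNA per cell cannot be told apart.

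The median gene probeset of an array lay at 6.29 to 6.76 on the log2 signal scale, and the background level of the arrays, taken from control probesets that match no mouse sequence, was 6.57 to 6.87. S100a5 averaged 15.99 ± 0.31 (SD, n = 4) in GFP+ cells and 14.85 ± 0.28 in GFP- cells with odorant. It averaged 15.97 ± 0.26 in GFP+ cells and 15.04 ± 0.15 in GFP- cells with vehicle. The mature neuron marker Omp lay between 18.53 and 18.75 on all 16 arrays, so both fractions held mature neurons. The pools numbered 4 of both treatments stood apart: their 4 arrays gave 2.63 to 3.41 for Eif2s3y, a gene of the Y chromosome, against 9.95 to 11.17 on the other 12.

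The first question was which of these receptors had a higher signal in GFP+ than in GFP- cells. Olfr15 and Olfr160 were higher in GFP+ cells with both treatments, by 5.66-fold to 11.0-fold. Olfr1019, Olfr1440 and Olfr16 were lower in GFP+ cells, by 8.24-fold to 54.0-fold. Olfr17 was lower by 2.21-fold and 1.85-fold. In the main fit, which does not pair the arrays of a pool, Olfr73 passed the test only with vehicle, at 2.17-fold lower. With odorant it was 1.98-fold lower, and with the pool as a block it passed there too, as the 7th of the 8. Olfr2 lay close to the background level in every group. With odorant, 6 of the 8 passed the test (limma, adjusted p under 0.05 over all gene probesets), 2 of them higher and 4 lower, against 11.4% of all gene probesets (3.57% higher, 7.84% lower) and 58.5% of odorant receptor probesets (34.1% higher, 24.4% lower). With vehicle, 7 of the 8 passed, 2 higher and 5 lower, against 17.7% of all gene probesets (7.76% higher, 9.97% lower) and 60.6% of receptor probesets (35.1% higher, 25.5% lower). Passing was thus common among receptors in general, and these counts mark nothing particular to the 8. Where the arrays of the fractions are said below not to overlap, that was not counted over the other probesets. It is likewise no trait particular to these receptors: an unadjusted p under 0.05 by limma was found for 71.7% of receptor probesets with odorant and 72.1% with vehicle. Their median log2 difference, GFP+ minus GFP-, was -1.06 with odorant, against 0.33 over the receptor probesets and 0.10 over all gene probesets. With vehicle it was -0.9998, against 0.27 and 0.08.

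**Figure D1:**
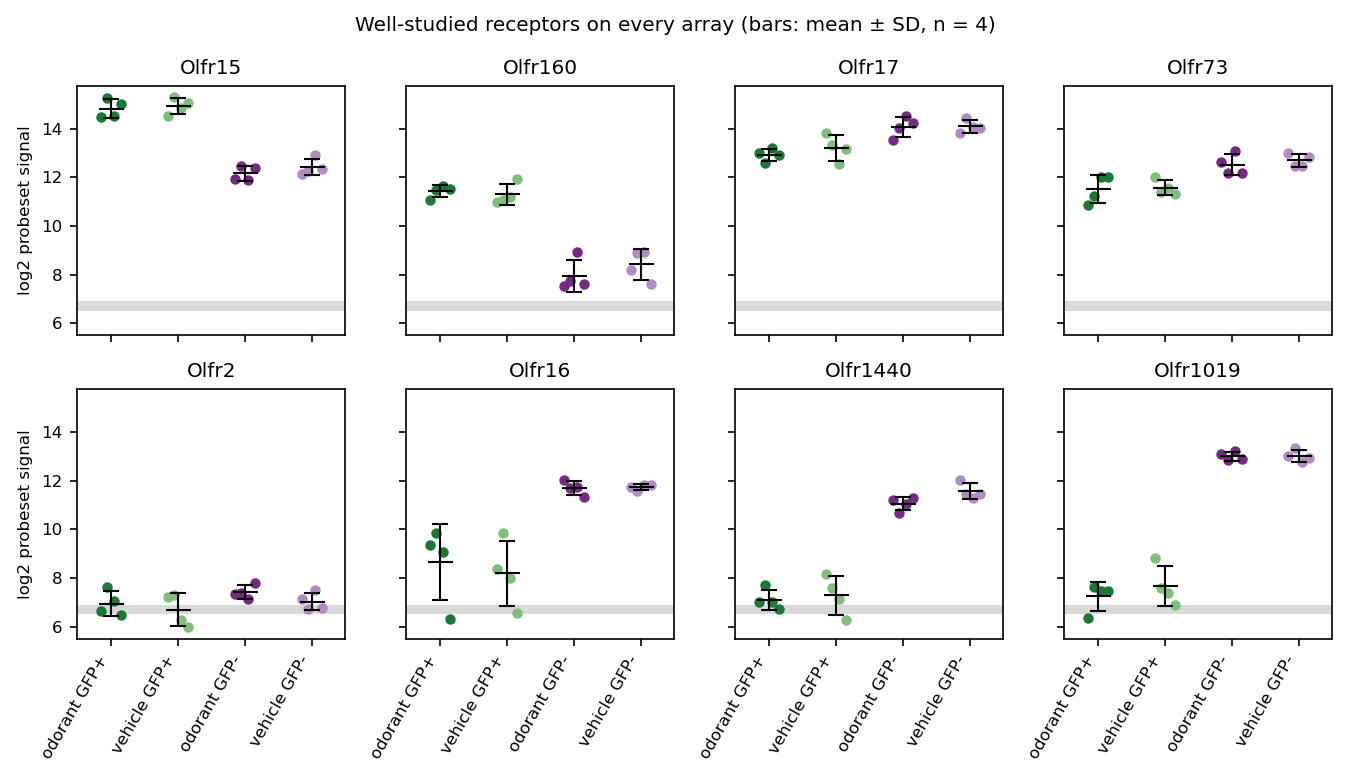
Log2 probeset signal of the 8 receptors on each of the 16 arrays, by group (points: arrays; bars: mean ± SD, n = 4; grey band: background level over the arrays, 6.57 to 6.87). The GFP+ arrays lie above all GFP- arrays for Olfr15 and Olfr160 and below all GFP- arrays for Olfr17, Olfr73, Olfr16, Olfr1440 and Olfr1019 within each treatment. Such separation was not counted over the other receptor probesets.

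Olfr15, known as MOR256-17, is a broadly tuned receptor that responds to many odorants. Its log2 signal was 14.48, 15.25, 14.52 and 15.02 in GFP+ cells with odorant, against 11.92, 12.48, 11.90 and 12.40 in GFP- cells with odorant. It was 14.50, 15.28, 14.85 and 15.05 in GFP+ cells with vehicle, against 12.15, 12.27, 12.91 and 12.36 in GFP- cells with vehicle. No GFP+ array overlapped a GFP- array. The difference was 2.65 (SE 0.22, adjusted p = 1.1e-05 by limma) with odorant, which is 6.26-fold, and 2.50 (SE 0.21, adjusted p = 2.0e-05) with vehicle, which is 5.66-fold. Within the 8 pools, the GFP+ array exceeded the GFP- array by 1.93 to 3.02. The 4 pools with odorant were tightly grouped, at 2.57 to 2.78. Of the 1080 receptor probesets, 92 had a higher difference with odorant and 110 with vehicle.

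Olfr160, known as M72, is a receptor for acetophenone whose neurons have been used to map receptor-specific axon targeting. The log2 signal of Olfr160 was 11.07, 11.47, 11.65 and 11.50 in GFP+ cells with odorant, against 7.55, 7.75, 8.95 and 7.62 in GFP- cells with odorant. It was 11.00, 11.07, 11.18 and 11.94 in GFP+ cells with vehicle, against 8.21, 8.90, 8.95 and 7.63 in GFP- cells with vehicle. The fractions did not overlap, and Olfr160 was above background on all 16 arrays. Its GFP- means, 7.96 with odorant and 8.42 with vehicle, were not far over the mean background of those groups, 6.64 and 6.68. GFP+ cells were 11.0-fold higher with odorant (difference 3.46, SE 0.29, adjusted p = 1.2e-05 by limma). They were 7.34-fold higher with vehicle (difference 2.88, SE 0.31, adjusted p = 1.0e-04). A higher difference was found for 41 receptor probesets with odorant and 69 with vehicle. Olfr160 and Olfr151 are close paralogs, and since probe sequences were not used here, RNA of Olfr151 in this signal was not tested. The spread sat mainly in the GFP- arrays, where the SD was 0.66 with odorant and 0.62 with vehicle, and the within-pool differences ran from 2.17 to 4.30.

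Olfr17, known as P2, is the receptor whose neurons were genetically labelled to trace their axons to the olfactory bulb. The log2 signal of Olfr17 was 12.99, 12.59, 13.19 and 12.92 in GFP+ cells with odorant, against 13.54, 14.01, 14.51 and 14.22 in GFP- cells with odorant. It was 13.81, 13.34, 12.53 and 13.17 in GFP+ cells with vehicle, against 13.83, 14.45, 14.08 and 14.03 in GFP- cells with vehicle. Vehicle pool 1 held almost equal levels in both fractions, with a difference of -0.018, while the other pools lay at -0.55 to -1.55. Olfr17 was 2.21-fold lower in GFP+ than in GFP- cells with odorant (difference -1.15, SE 0.22, adjusted p = 0.0044 by limma). With vehicle the difference was -0.88 (SE 0.25, adjusted p = 0.035), and that call was lost without vehicle replicate 2 (adjusted p = 0.137), 3 (0.106) or 4 (0.107). It was also lost with array medians subtracted (difference -0.52, adjusted p = 0.081), a scaling that moved the median of all gene probesets from 0.08 to 0.45.

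Olfr73, known as mOR-EG, is a receptor for eugenol, the odorant of cloves. With odorant, its log2 signal was 10.87, 11.25, 12.02 and 12.02 in GFP+ cells, against 12.65, 12.17, 13.09 and 12.18 in GFP- cells. It was 12.01, 11.38, 11.57 and 11.33 in GFP+ cells with vehicle, against 13.00, 12.48, 12.46 and 12.82 in GFP- cells with vehicle. Every GFP+ array lay under every GFP- array of its treatment. With vehicle, Olfr73 was 2.17-fold lower in GFP+ cells (difference -1.12, SE 0.19, adjusted p = 0.0024 by limma). With odorant the difference was -0.98 (SE 0.30, adjusted p = 0.060), which missed the threshold, and with the pool as a block it passed (SE 0.25, adjusted p = 0.040). It also passed after quantile normalization (adjusted p = 0.041) and in a fit of all 16 arrays (adjusted p = 0.020). The difference within single pools was -0.16 to -1.78.

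Olfr2, known as I7, responds to aldehydes such as octanal. Its log2 signal was 6.64, 7.62, 7.08 and 6.49 in GFP+ cells with odorant, against 7.36, 7.41, 7.14 and 7.82 in GFP- cells with odorant. It was 7.21, 7.33, 6.29 and 5.98 in GFP+ cells with vehicle, against 7.15, 6.72, 7.49 and 6.79 in GFP- cells with vehicle. The fractions overlapped, and only 2 of 4 GFP+ arrays in each treatment exceeded background. Of the GFP- arrays, 4 of 4 with odorant and 3 of 4 with vehicle exceeded it. The difference was -0.47 (95% interval -1.03 to 0.08) with odorant and -0.34 (-1.02 to 0.35) with vehicle, with adjusted p values of 0.30 and 0.50 by limma; with array medians subtracted the vehicle value was 0.027. No difference between the fractions was detected at this signal, and the intervals reach down to -1.03 and -1.02.

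**Figure D2:**
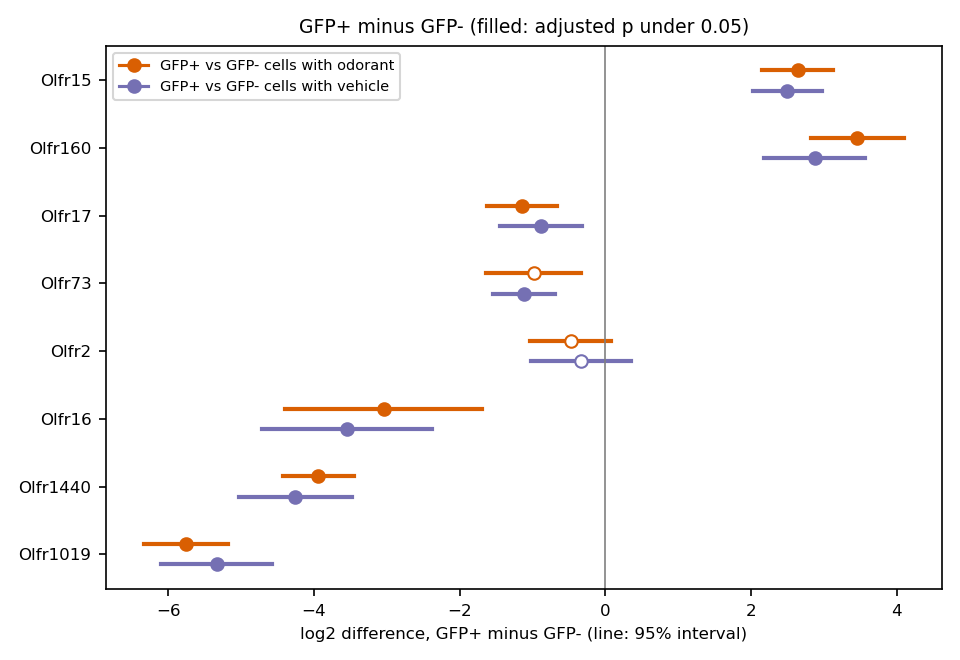
Log2 difference, GFP+ minus GFP- cells, of the 8 receptors with odorant and with vehicle (points: estimate; lines: 95% interval; filled: adjusted p under 0.05 by limma). Olfr15 and Olfr160 lie above 0, Olfr1019 and Olfr1440 lie lowest, and Olfr2 spans 0 with both treatments.

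Olfr1019 is a receptor for trimethylthiazoline, a fox odor that evokes freezing in mice. Its log2 signal was 6.38, 7.64, 7.48 and 7.49 in GFP+ cells with odorant, against 13.09, 12.84, 13.22 and 12.87 in GFP- cells with odorant. It was 8.82, 7.60, 7.41 and 6.91 in GFP+ cells with vehicle, against 13.01, 13.36, 12.79 and 12.93 in GFP- cells with vehicle. The GFP+ values were above background on 3 of 4 arrays with odorant and on 4 of 4 with vehicle, where replicate 1, at 8.82, was the highest, and the fractions stood at least 4.18 apart in every pool. GFP+ cells were 54.0-fold lower with odorant (difference -5.76, SE 0.26, adjusted p = 1.3e-07 by limma) and 40.3-fold lower with vehicle (difference -5.33, SE 0.34, adjusted p = 2.7e-06). Among the 1080 receptor probesets, 26 had a lower difference with odorant and 41 with vehicle.

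Olfr1440 is a receptor for muscone, a macrocyclic musk. Its log2 signal was 7.01, 7.70, 7.04 and 6.73 in GFP+ cells with odorant, against 11.21, 10.69, 11.05 and 11.28 in GFP- cells with odorant. It was 8.19, 7.60, 7.16 and 6.29 in GFP+ cells with vehicle, against 12.04, 11.46, 11.31 and 11.45 in GFP- cells with vehicle. No array of one fraction reached the range of the other. GFP+ cells were 15.3-fold lower with odorant (difference -3.94, SE 0.22, adjusted p = 6.1e-07 by limma) and 19.1-fold lower with vehicle (difference -4.25, SE 0.35, adjusted p = 1.5e-05). Vehicle pool 1 had the highest GFP+ value of Olfr1440, and likewise of Olfr1019 and Olfr17. The mean level of 6 immune cell markers on that array was 6.91, within the 6.36 to 7.57 of the 8 GFP+ arrays, and that of 8 immature neuron markers was 9.64, the highest of 9.16 to 9.64; their part in those values was not tested.

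Olfr16, known as MOR23, is a receptor for lyral, a lily-of-the-valley odorant. Its upstream sequence is shown because this gene has been studied for the short promoter elements that receptor genes share, among them homeodomain sites. RefSeq (build GRCm38.p6) gives the 250 bases before its start on the plus strand as chr1:172956518-172956767. Matches to the homeodomain core TAATGA are in capitals. The core lies on the opposite strand, so the printed strand reads TCATTA.
Olfr16: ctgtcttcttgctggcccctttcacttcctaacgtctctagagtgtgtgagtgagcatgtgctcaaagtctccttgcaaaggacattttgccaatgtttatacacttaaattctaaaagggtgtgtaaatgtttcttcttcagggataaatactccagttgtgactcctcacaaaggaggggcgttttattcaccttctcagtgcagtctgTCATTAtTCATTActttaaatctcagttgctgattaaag

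The 2 matches began 39 and 32 bases before the annotated start. TAATGA was searched on both strands, and it was held by 25.7% of the 921 receptors with such a window and by 9.94% of 27025 genes. The related core TAATTA, the same on both strands, had no match in this window and was held by 18.0% of those receptors. Windows of the same length were found for 6 of the 8 receptors, and Olfr16 was the only one with a match to either core. In 4 of the other 5 the annotated start is the ATG of the coding sequence, so those windows need not reach the promoter. Whether transcription of Olfr16 begins at its annotated start was not tested either.

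The log2 signal of Olfr16 was 9.38, 9.84, 9.09 and 6.34 in GFP+ cells with odorant, against 12.04, 11.71, 11.74 and 11.34 in GFP- cells with odorant. It was 8.38, 9.84, 7.99 and 6.57 in GFP+ cells with vehicle, against 11.74, 11.58, 11.82 and 11.84 in GFP- cells with vehicle. The GFP- arrays were tight (SD 0.29 and 0.12), whereas the GFP+ arrays spread widely (SD 1.58 and 1.34). GFP+ cells were 8.24-fold lower with odorant (difference -3.04, SE 0.61, adjusted p = 0.0064 by limma) and 11.7-fold lower with vehicle (difference -3.55, SE 0.53, adjusted p = 8.6e-04). The lowest GFP+ array of each treatment was the pool numbered 4, and on both of these Olfr16 did not exceed background. Without pool 4 the difference was -2.39 (SE 0.23, adjusted p = 2.2e-04) with odorant and -2.98 (SE 0.41, adjusted p = 0.0013) with vehicle. Without vehicle replicate 2, the highest GFP+ array, the vehicle difference was -4.15 (SE 0.41, adjusted p = 2.7e-04).

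The pools numbered 4, with their low Eif2s3y signal, held the 2 lowest GFP+ values of Olfr16, 6.34 and 6.57, against 7.99 to 9.84 in the other 6 GFP+ arrays. Olfr1440 also had its 2 lowest GFP+ values there, 6.29 and 6.73 against 7.01 to 8.19. The other 6 receptors did not have both of these arrays under all the rest. Among all receptor probesets, 71 of 1080 had both arrays lowest and 74 had both highest, and 6, Olfr16 included, had a gap at least as wide as the 1.42 of Olfr16. In GFP- cells Olfr16 was at 11.34 and 11.84 in those pools, against 11.58 to 12.04 on the other 6 arrays. Only these 2 pools bear on the pattern, the labels give no sex per pool, and the part of sex in it was not tested.

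**Figure D3:**
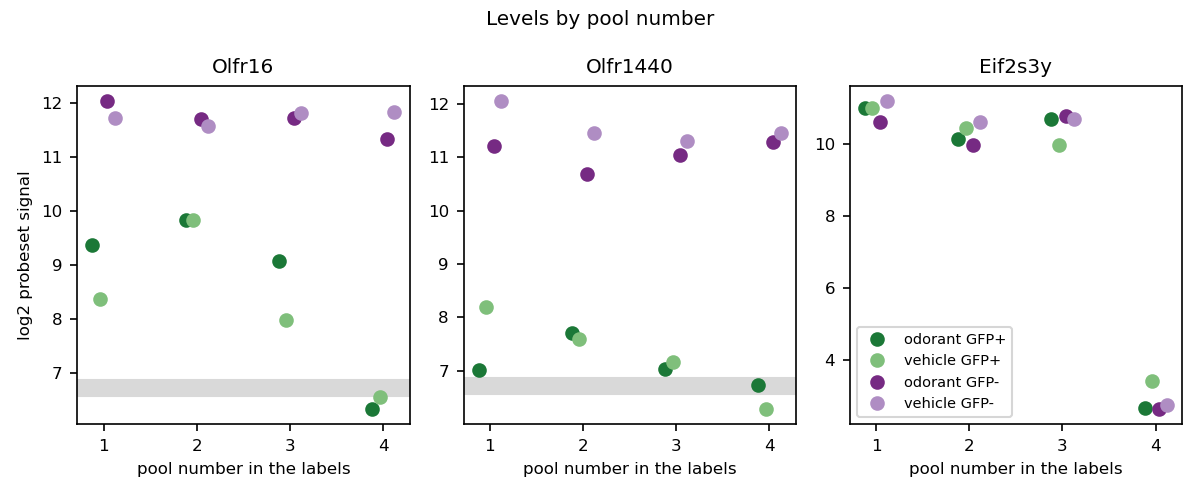
Log2 probeset signal of Olfr16, Olfr1440 and the Y-linked gene Eif2s3y by the pool number in the labels (points: arrays, coloured by group; grey band in the receptor panels: background level; the panels have their own vertical scales). In GFP+ cells, Olfr16 and Olfr1440 are lowest in the pools numbered 4, where Eif2s3y is at 2.63 to 3.41.

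The second question was whether the odorant changed the level of any of these receptors in GFP+ cells, where neurons it activated would be collected. No difference passed: 0 of the 8 receptors were called by limma, against 0% of the 22206 gene probesets. An unadjusted p under 0.05 was found for 0 of the 8, against 848 gene probesets (3.82%) and 6.39% of receptor probesets. The adjusted p was 0.999 for each of the 8. The narrowest intervals were those of 4 receptors: Olfr15 differed by -0.10 (95% interval -0.59 to 0.39), Olfr160 by 0.13 (-0.36 to 0.61), Olfr73 by -0.04 (-0.63 to 0.56) and Olfr17 by -0.29 (-0.84 to 0.26).

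For the receptors that were low in GFP+ cells the intervals were wider. Olfr16 averaged 8.66 ± 1.58 with odorant and 8.19 ± 1.34 with vehicle (SD, n = 4 each), a difference of 0.47 with an interval of -1.26 to 2.20. It was 1.24 without odorant replicate 4, -0.07 without vehicle replicate 4 and 0.70 without both. Olfr1019 differed by -0.44 (-1.30 to 0.43), Olfr1440 by -0.19 (-0.98 to 0.60) and Olfr2 by 0.25 (-0.49 to 0.99). The value of Olfr1019 was -0.15 without odorant replicate 1, -0.06 without vehicle replicate 1, -0.69 without vehicle replicate 4 and -0.77 without replicate 4 of both treatments. In the main fit, a rise of 1 log2 unit in signal lay above the intervals of 7 of the 8 receptors, all but Olfr16. For Olfr2 the margin was thin, and its difference was 0.46 (SE 0.34) without vehicle replicate 2. Olfr2, Olfr1019 and Olfr1440 lay near background in GFP+ cells. A rise in their RNA may be understated there, so these intervals do not bound it. With the replicate number as a block, the SE for Olfr16 was 0.25 in place of 0.78, and its adjusted p was 0.999 in both fits.

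In GFP- cells, 0 of the 8 passed as well, against 0% of all gene probesets. Olfr1440 had the smallest p: its log2 signal averaged 11.06 ± 0.26 with odorant and 11.56 ± 0.33 with vehicle, and no odorant array reached the lowest vehicle array. The difference of -0.51 (SE 0.20, 4 of 4 odorant arrays under the vehicle mean) had an unadjusted p of 0.030 and an adjusted p of 0.71 by limma, so it failed the correction. At an unadjusted p under 0.05, 1520 gene probesets (6.84%) and 108 of 1080 receptor probesets (10%) were found in that comparison. Olfr2 was at 7.43 ± 0.28 with odorant and 7.04 ± 0.36 with vehicle (difference 0.39, interval -0.08 to 0.86). Olfr160 was at 7.96 ± 0.66 with odorant and 8.42 ± 0.62 with vehicle (difference -0.46, interval -1.26 to 0.34), and the difference was -0.79 without odorant replicate 3 and -0.72 without vehicle replicate 4. The other 5 differed by -0.25 to -0.01.

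**Figure D4:**
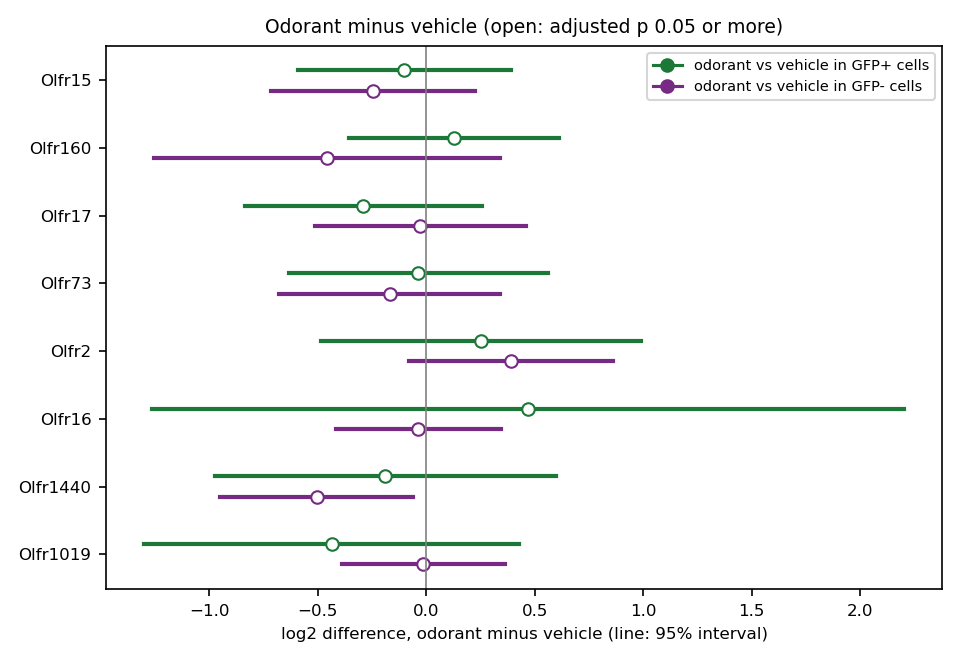
Log2 difference, odorant minus vehicle, of the 8 receptors in GFP+ and in GFP- cells (points: estimate; lines: 95% interval; all open, since no adjusted p is under 0.05). In GFP+ cells the intervals of 7 receptors end below 1, and that of Olfr16 reaches 2.20.

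The third question was whether the difference between GFP+ and GFP- cells changed with the odorant. The interaction, which subtracts the odorant effect in the GFP- fraction from that in the GFP+ fraction, passed for 0 of the 8, against 0% of all gene probesets. Olfr160 had a value of 0.58 (SE 0.46, 95% interval -0.39 to 1.55, adjusted p = 0.96 by limma), which was 1.06 without vehicle replicate 4, 0.92 without replicate 4 of both treatments and 0.35 without vehicle replicate 2. Olfr16 had a value of 0.51 (-1.39 to 2.40), which was 1.16 without odorant replicate 4 and -0.07 without vehicle replicate 4. Olfr1019 had a value of -0.42 (-1.40 to 0.55), which was -0.04 without vehicle replicate 1, -0.10 without odorant replicate 1 and -0.78 without replicate 4 of both treatments. The order of these 3 receptors thus changed with single pools. The other 5 lay between -0.26 and 0.32. At an unadjusted p under 0.05 there were 0 of the 8 receptors and 1093 gene probesets (4.92%).

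The order of the 4 groups was therefore set by the fraction. For Olfr15 and Olfr160 the 2 GFP+ groups were highest, and for Olfr17, Olfr73, Olfr16, Olfr1440 and Olfr1019 the 2 GFP- groups were highest. Groups that differed only in treatment gave no adjusted p under 0.05 for any of these 7 receptors.

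The gene with the most similar pattern was found for each receptor as the one with the smallest root-mean-square difference over the 16 arrays, after each gene was centred on its own mean, among 10022 probesets with a mean over background. For 4 of the 8 it was another odorant receptor, and the share of receptors among the 10022 was not counted. Olfr1339 lay closest to Olfr15 (0.31 log2), Olfr1009 to Olfr160 (0.36), Olfr1431 to Olfr16 (0.58) and Olfr884 to Olfr1019 (0.48). Olfr1431 shared the wide GFP+ spread of Olfr16, with 6.70 ± 1.08 with odorant and 6.55 ± 1.94 with vehicle. It was picked for its likeness over these arrays, and both means lay under the mean background of the groups, 6.77 and 6.65. The GFP+ means of Olfr884, and of Cdyl2 and Gng4 below, also lay under that level. Dpysl3, a marker of immature neurons, was the gene closest to Olfr1440 (0.46), at 8.17 ± 0.21 in GFP+ cells and 11.89 ± 0.22 in GFP- cells with odorant. Slco4c1, an organic anion transporter, lay closest to Olfr17 (0.27), and Cdyl2, a chromodomain protein, to Olfr73 (0.29). Gng4, a G protein gamma subunit, lay closest to the nearly flat Olfr2 (0.31). The next closest gene was an odorant receptor for Olfr1440, Olfr17 and Olfr2, but not for Olfr73. These are descriptions of the same arrays, which share their pools and sorts.

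Genes of the pathway the receptors work in were described with them. Across all gene probesets, 3.57% were higher in GFP+ cells and 7.84% lower with odorant, and 7.76% higher and 9.97% lower with vehicle. Of 18 matched genes of odor transduction, 2 were higher and 2 lower in GFP+ cells with odorant, and 6 were higher and 2 lower with vehicle. Their median difference was 0.16 with odorant and 0.11 with vehicle. Pde1c, which breaks down cAMP, was 1.61-fold higher with odorant (adjusted p = 0.0065 by limma) and 1.57-fold higher with vehicle (adjusted p = 0.0085). The lower genes were Grk3, a receptor kinase that was at background in both fractions, and Rgs2. Rgs2, a regulator of G protein signaling, was at background in GFP+ cells and at least 2.96-fold lower there with odorant and at least 5.12-fold lower with vehicle. Of 5 matched receptor trafficking genes, 0 passed in either treatment (median 0.13 and 0.24), and Rtp1, which carries receptors to the cell surface, was at 17.08 ± 0.07 in GFP+ cells and 16.95 ± 0.06 in GFP- cells with odorant.

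Of 14 regulators of receptor choice, 0 were higher and 1 lower with odorant, and 2 were higher and 1 lower with vehicle (median -0.04 and 0.04). The shares over all gene probesets were 3.57% higher and 7.84% lower with odorant, and 7.76% and 9.97% with vehicle. Lbr, the lamin B receptor that is switched off as receptor genes are sequestered in the nucleus, was 1.93-fold lower in GFP+ cells with odorant (adjusted p = 0.040 by limma) and 2.12-fold lower with vehicle (adjusted p = 0.0076). Ebf1, a transcription factor that binds receptor promoters, was 1.36-fold higher with vehicle (adjusted p = 0.029). Of 14 activity-dependent genes, a list that holds the reporter gene S100a5 and so is not independent of the sort, 6 were higher with odorant and 11 with vehicle (median 0.74 and 0.99), and 0 were lower. Ptprn, a dense-core vesicle protein, was 4.08-fold higher with odorant and 4.18-fold higher with vehicle. In the odorant against vehicle comparisons, 0 genes of these 4 lists passed in either fraction, against 0% of all gene probesets.

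Markers of other cells moved with the fractions that separated the receptors. Among all gene probesets, 3.57% were higher in GFP+ cells and 7.84% lower with odorant, and 7.76% higher and 9.97% lower with vehicle. Of 8 immature neuron markers, 6 were lower in GFP+ cells with each treatment. Their mean level was 9.28 to 9.50 in GFP+ and 11.58 to 12.12 in GFP- cells with odorant, and 9.16 to 9.64 in GFP+ and 11.90 to 12.26 in GFP- cells with vehicle, with 2 of the 8 at background in GFP+ cells. All 6 immune markers were lower with each treatment, at 6.36 to 6.92 in GFP+ and 12.49 to 14.12 in GFP- cells with odorant. All 7 microvillar and tuft cell markers were lower as well, and 6 of them were at background in GFP+ cells. Of 8 mature neuron markers, 1 was higher with odorant and 2 with vehicle, with 0 lower. The part of these cells in the receptor differences was not tested.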

How the data were processed

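RNA of FACS-sorted olfactory mucosa cells was measured on 16 arrays. The deposited values are log2 probeset signals that the authors made with Affymetrix Expression Console, per the submitters' processing notes; its version, background correction and normalization were not stated. They were used as deposited. After 6640 control probesets were left out, 22206 gene probesets remained, 19572 with 1 gene symbol and 2634 without, and 0 columns lacked a sample. No build of the array annotation was stated, so probesets are given no positions; the position of the Olfr16 upstream sequence is that of the RefSeq table.

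Background was the 95th percentile of 23 antigenomic control probesets per array. A fold against a group at background uses that level and is a lower bound. The number of arrays limits the precision. Comparisons were fitted with limma 3.58.1 (R 4.3.3), two-sided, on the arrays of the groups compared (the interaction on all 16); p-values were adjusted by Benjamini-Hochberg across the 22206 gene probesets and called under 0.05. The fits were tested on simulated data. With 24 mice and 3 per pool, the number pairs the 2 fractions of a pool, and p-values measure the spread between 4 pools of a group. Across genes, values centred within groups correlated with r = 0.11 to 0.16 (vehicle) and 0.014 to 0.36 (odorant) between fractions of a pool.

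Members and lists were chosen with earlier results of these data known. Named genes are the receptors, S100a5, Omp, the gene most like each receptor, and up to 4 genes with the smallest p of each pathway list; Eif2s3y was added after its values were seen, and the planned naming of the receptor closest in protein sequence was not done, as no protein table was used here. Alternatives were quantile normalization, subtraction of array medians, omission of dim probesets, 1 fit of all arrays, a replicate block, and leaving out replicates. Plots were drawn with matplotlib 3.10.9.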

Additional observations from a re-analysis of the deposited data

Results flagged for a closer look

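Single arrays stood apart from the other 3 of their group in 2 of the 40 sets of 4 arrays examined (8 receptors, S100a5 and Omp), by the gap to the nearest array relative to the range; chance gives about 1 in 20. Olfr160 was at 8.95 in replicate 3 of GFP- cells with odorant, against 7.55 to 7.75 in the other 3, and without that replicate its difference between GFP+ and GFP- cells was 3.71, against 3.46 with it, and its odorant minus vehicle difference in GFP- cells was -0.79, against -0.46. Olfr1019 was at 6.38 in replicate 1 of GFP+ cells with odorant, against 7.48 to 7.64 in the other 3, and without that replicate its difference between GFP+ and GFP- cells was -5.44, against -5.76 with it. Its odorant minus vehicle difference in GFP+ cells was then -0.15, against -0.44, and its interaction -0.10, against -0.42.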

How the results depend on the processing

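Of 531 values for the receptors and S100a5 under the alternatives, 494 kept their direction and side of the threshold, 30 changed sign, 3 came to pass the threshold and 4 no longer passed it; the causes were not tested. All 30 sign changes were of differences that had not passed. With array medians subtracted, 9277 gene probesets passed between GFP+ and GFP- cells with odorant, against 2535, and 12050 with vehicle, against 3936; the median of all gene probesets moved to 0.42, against 0.10, with odorant and to 0.45, against 0.08, with vehicle. That setting gave Olfr2 0.027 between fractions with vehicle, and odorant minus vehicle values in GFP- cells of 0.0022 for Olfr16, 0.011 for Olfr17 and 0.026 for Olfr1019. Quantile normalization gave 0.020 for Olfr17 there. Leaving out dim probesets gave 1445 calls with odorant, from fewer tested. Leaving out single pools gave 2479 to 3002 calls with vehicle, with 2479 without vehicle replicate 2 and 2610 without vehicle replicate 1.

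Between odorant and vehicle in GFP+ cells, leaving out single replicates gave 0 to 3 calls, with 3 without vehicle replicate 4, and 3 without replicate 4 of both treatments. Leave-one-out differences there ran from -0.25 to 0.020 for Olfr15, -0.073 to 1.24 for Olfr16, -0.20 to 0.19 for Olfr73, -0.53 to 0.10 for Olfr1440 and -0.098 to 0.17 for S100a5. In GFP- cells they ran from -0.15 to 0.085 for Olfr16, -0.17 to 0.15 for Olfr17 and -0.090 to 0.099 for Olfr1019, and without replicate 4 of both treatments they were 0.12 for Olfr16 and 0.00079 for Olfr1019. For the interaction they ran from -0.43 to 0.18 for Olfr2, -0.043 to 0.32 for Olfr15, -0.068 to 1.16 for Olfr16, -0.48 to 0.027 for Olfr17 and -0.14 to 0.40 for Olfr73, which was -0.27 without replicate 4 of both treatments.

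The replicate block changed the call of Olfr73 with odorant (adjusted p = 0.040 by limma, against 0.060) and of no other receptor. Between odorant and vehicle, arrays of the same number come from different pools. In GFP+ cells such arrays correlated with r = -0.034 to 0.25, and 4 of 8 were best with their own number. In GFP- cells the values were -0.10 to 0.31 and 5 of 8. Between the fractions of a pool, 5 of 8 arrays with odorant and 8 of 8 with vehicle were best with their own number. Whether the numbers mark anything else shared between treatments was not tested. Signal over background limits Olfr2 in all groups, Olfr160 in GFP- cells, and Olfr16, Olfr1019 and Olfr1440 in GFP+ cells. The folds of these receptors may be understated.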
